A study of Mus musculus with 16 samples.

Results

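The 4 myeloid surface receptors described here are the CD300 receptors encoded by Cd300ld, Cd300lf and Cd300c2 and the triggering receptor encoded by Trem1. They were selected on the measured values: each is a gene that the authors listed as changed between evening and morning, and its name and direction of change were known when it was picked. The authors' deposited table for CD11c-low eosinophils holds 4 of the 4 genes among its 1340 listed genes, and that for CD11c-high eosinophils holds 0 of the 4 among its 172. Their changes are therefore given as a description, without a test of their own.

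The cells were mouse eosinophils from the duodenum, sorted out of the lamina propria that underlies its epithelium. Surface level of CD11c, an integrin chain, split them into a CD11c-high and a CD11c-low subset, and each subset was taken at ZT15 (PM in the sample titles) and at ZT3 (AM), where ZT counts hours from lights on. There were 16 libraries, each from 1000 sorted cells: 4 of CD11c-high cells at ZT15, 4 of CD11c-high cells at ZT3, 4 of CD11c-low cells at ZT15 and 4 of CD11c-low cells at ZT3. The labels name no genetic change and no drug, and they give neither strain nor age.

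CD300 receptors and TREM-1 belong to the immunoglobulin superfamily. Such receptors come in pairs on myeloid cells. The activating ones have almost no signalling tail and work through adaptors that carry an activation motif, DAP12 (Tyrobp) or the Fc receptor gamma chain (Fcer1g), which call in the kinase Syk. The inhibitory ones carry their own inhibitory motifs (ITIMs), which bind phosphatases such as SHP-1 (Ptpn6). Several CD300 receptors bind lipids exposed on cells, ceramide and phosphatidylserine among them, and TREM-1 is best known for amplifying inflammatory signals in neutrophils and monocytes.

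All 4 receptor transcripts were more abundant at ZT15 than at ZT3 in CD11c-low eosinophils, by 1.27-fold (Trem1) to 1.50-fold (Cd300ld) in the authors' deposited table. Cd300lf encodes the inhibitory receptor among them and the others encode activating ones, and their shared direction was known when they were picked. Of all listed genes of this subset, 52.2% were higher at ZT15, and because the 4 were chosen by this contrast nothing is read from 4 of 4. The tables hold no value of a single library, so levels at ZT15 and at ZT3 and the overlap of the groups were not analysed here. In sorted bulk RNA, a change in the make-up of the sorted cells and a change in RNA per cell cannot be told apart.

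**Figure D1:**
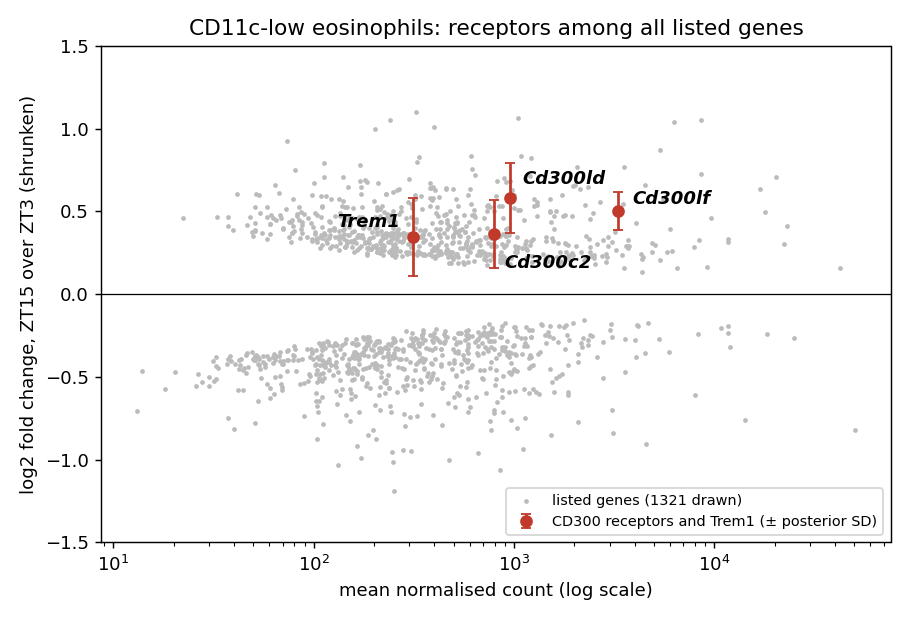
Log2 fold change at ZT15 over ZT3 (y axis, read as shrunken) against mean normalised count (log-scale x axis) for genes listed in CD11c-low eosinophils. The 4 receptors are in red, with their posterior standard deviations as bars. Grey points are 1321 listed genes, 19 lie beyond ±1.5, and the empty band around 0 reflects that the table lists called genes only; Cd300lf lies far to the right, at 3315, with the shortest bar.

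Cd300ld (ENSMUSG00000034641.3) encodes an activating receptor, also named CLM-5 or LMIR4, that signals through the Fc receptor gamma chain. Its log2 fold change was 0.58 ± 0.21 in the authors' deposited table (± posterior standard deviation throughout), and its normalised count averaged 956 over libraries. Its s-value there was 0.00043, which means that this share of the genes down to its place in the list is expected to have the wrong sign. A 95% interval built from that standard deviation ran from 1.12- to 1.99-fold. The increase ranked 87 among the 700 listed as higher. In order of s-value the gene lay between 3110082I17Rik (0.56 ± 0.20) and Il1b, the interleukin-1 beta gene (0.41 ± 0.15), in the authors' deposited table.

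Cd300lf (ENSMUSG00000047798.16) encodes the inhibitory receptor of the set, CLM-1 or LMIR3, which carries ITIMs, binds ceramide and phosphatidylserine and serves as the entry receptor of mouse norovirus. It had a log2 fold change of 0.50 ± 0.12 and the smallest s-value of the 4, 7.96e-07, in the authors' deposited table. By s-value it stood at place 34 of 1340, between Kdm6b, a histone demethylase gene (-0.90 ± 0.21), and Eif1, a translation initiation factor gene (-0.70 ± 0.16), per the authors' deposited table. The 95% interval of its fold was 1.21 to 1.66. It was also the most abundant of the 4, at 3315 mean normalised counts in the authors' deposited table, above 95.4% of listed genes.

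Cd300c2 (ENSMUSG00000044811.14) encodes the activating receptor MAIR-II or CLM-4, which pairs with DAP12 in macrophages. Its log2 fold change was 0.36 ± 0.21, with 794 mean normalised counts and an s-value of 0.0111, in the authors' deposited table. The 95% interval included no change (0.97- to 1.71-fold). In order of s-value it lay between Cytip (-0.24 ± 0.13), an adhesion regulator of leukocytes, and Mcu (-0.45 ± 0.26), the mitochondrial calcium channel gene, in the authors' deposited table.

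Trem1 (ENSMUSG00000042265.14), which encodes the DAP12-coupled receptor TREM-1, had the smallest and least certain increase. Its log2 fold change was 0.34 ± 0.24, with an s-value of 0.0239 and 312 mean normalised counts, in the authors' deposited table. The 95% interval was 0.92- to 1.75-fold. Its neighbours by s-value were Asl, the argininosuccinate lyase gene (0.38 ± 0.27), and Tnfrsf1b, the gene of TNF receptor 2 (0.42 ± 0.30), in the authors' deposited table.

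These 4 changes were close to each other relative to their errors. The widest gap, Cd300ld over Trem1, was 0.24 on the log2 scale, with a root of the summed squared standard deviations of 0.32. Their median log2 fold change was 0.43, beside a median of 0.36 over the 700 genes listed as higher in the authors' deposited table. Successive s-values also give each gene's own false sign rate, which was 4.46e-06 for Cd300lf, 0.00186 for Cd300ld, 0.0327 for Cd300c2 and 0.0639 for Trem1. On that scale 3 of the 4 lay under 0.05, where 27.7% of all listed genes were both under 0.05 and higher. At an s-value under 0.01, Cd300ld and Cd300lf were left (20.4% of listed genes), and the same pair had a 95% interval above 0 (16.6% of listed genes).

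Per length, the order of the transcripts was Cd300lf, Cd300c2, Cd300ld and Trem1. The mean normalised count per kilobase of the median protein-coding transcript (GENCODE M21) was 1779 for Cd300lf, 669 for Cd300c2, 361 for Cd300ld and 123 for Trem1. Cd300lf was thus the most abundant of the 4 both before and after division by length. The spread of these levels over libraries was not analysed here, so it is not known which neighbours in the order differ.

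None of the 4 was listed for CD11c-high eosinophils, where 54.1% of the 172 listed genes were higher at ZT15. Absence from a table can mean that a gene was tested and not called or that it was never tested, so this does not show a different daily change in that subset, and the difference between subsets was not tested. Of 68 other myeloid receptor genes looked up (relatives of the 4, other paired immunoglobulin-superfamily receptors and C-type lectin-like receptors), 2 were listed in CD11c-high cells. Lilra6, of the PIR-A and LILR family, rose in both subsets, with 0.29 ± 0.20 (CD11c-high) and 0.35 ± 0.21 (CD11c-low) in the authors' deposited tables. Pilrb1, which encodes an activating DAP12-coupled receptor, fell in CD11c-high cells, with -0.18 ± 0.13 in the authors' deposited table.

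The genes lie in 2 clusters. In the order of the RefSeq gene table, 11 CD300 genes lie together on chromosome 11, from Cd300a to Cd300lf, with 1 other gene between neighbours at some places. Cd300ld and Cd300c2 are direct neighbours there, and Cd300lf stands at the far end. These 3 were the listed genes of the cluster, and the other 8, including Cd300a, Cd300lb and Cd300e, were not listed. On chromosome 17, 5 of the 9 genes of the TREM cluster were listed in CD11c-low cells, all 5 higher at ZT15, with a median log2 fold change of 0.34 in the authors' deposited table. The 5 include Trem1, which was chosen because it was listed. The 4 others were all higher, where 52.2% of all listed genes were. Of these 4, A530064D06Rik and 9830107B12Rik were added after the values had been opened, so nothing is read from the count. Of the 5, 3 had a gene-wise false sign rate under 0.05, and Trem1 and B430306N03Rik did not.

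Among the 4 further TREM cluster genes the clearest increase was that of A530064D06Rik, the direct neighbour of Trem1, for which RefSeq gives the synonyms pdctrem and Trem4. Its log2 fold change was 0.63 ± 0.18, with an s-value of 1.99e-05 and 975 mean normalised counts, in the authors' deposited table. 9830107B12Rik, with the RefSeq synonym Trem5, rose by 0.32 ± 0.14 in the authors' deposited table. Treml4, whose product binds dead cells and amplifies Toll-like receptor 7 signalling in mice, rose by 0.39 ± 0.23 in the authors' deposited table. B430306N03Rik, with the synonym Treml6, rose by 0.26 ± 0.19 in the authors' deposited table. A530064D06Rik and 9830107B12Rik were added after the tables had been opened, on the basis of their RefSeq synonyms. Trem2, Trem3, Treml1 and Treml2 were not listed.

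**Figure D2:**
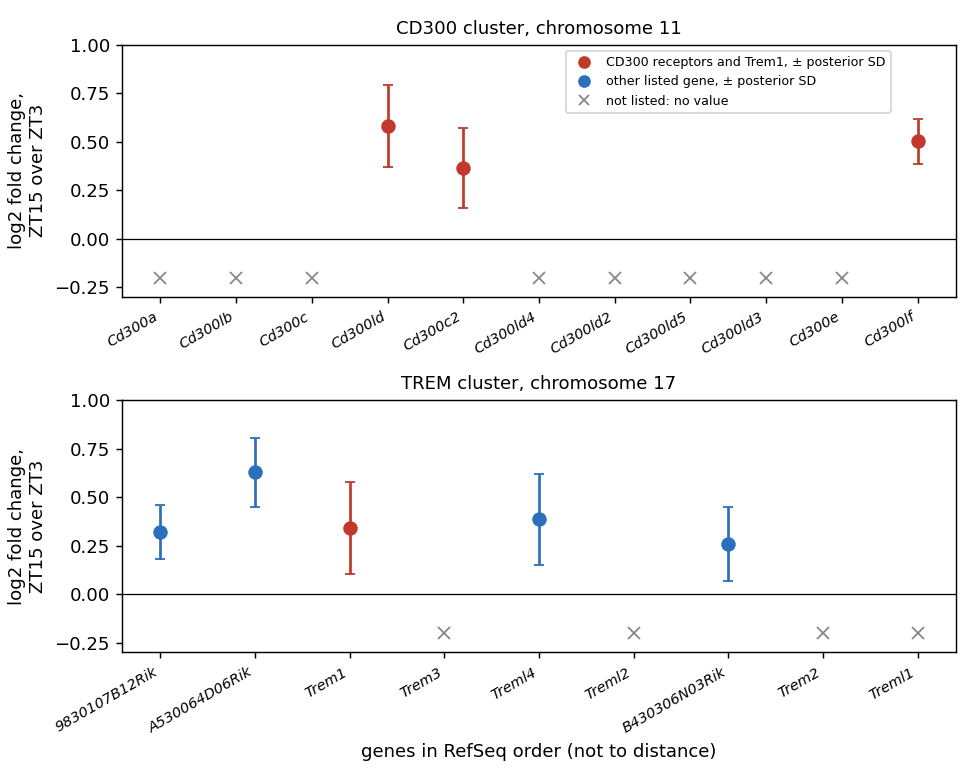
Log2 fold change at ZT15 over ZT3 in CD11c-low eosinophils (y axis) for the genes of the CD300 cluster (top) and the TREM cluster (bottom), in RefSeq order along the x axis; red points are the CD300 receptors and Trem1, blue points other listed genes, bars the posterior standard deviation, and crosses below 0 genes that are not listed, whose height carries no value. The 8 listed genes of both clusters lie above 0, from 0.26 to 0.63.

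No source used here says how reads that fit several genes were counted, so sequence shared between these relatives matters for their values. Of the 50-base words in the GENCODE M21 transcripts of Trem1, 0% occurred in transcripts of another gene. The share was 2.44% for Cd300lf, 3.89% for Cd300ld and 7.16% for Cd300c2, the last shared with Cd300a alone. Of the 129 shared words of Cd300lf and the 101 of Cd300ld, 95 were common to these 2 genes. Counting every gene with at least 1 of its words, Cd300lf shared words with 484 other genes. In the TREM cluster the share was 7.81% for A530064D06Rik, 5.68% for 9830107B12Rik, 3.56% for B430306N03Rik and 0% for Treml4. A530064D06Rik shared 3.11% of its words with 9830107B12Rik and 2.98% with B430306N03Rik, so the values of these relatives are uncertain in that respect. No exon of these 8 genes overlapped an exon of another gene in GENCODE M21.

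Because the 4 transcripts changed in the same direction, the 250 bases before each start are shown, from the RefSeq promoter table of build GRCm38.p6 (the submitters' processing notes name GRCm39), on the strand of the gene. All 4 genes matched the table. Capitals mark the matches, on either strand, to 8 short motifs. For the clock these were the E-box CACGTG, the element AGGTCA bound by ROR and REV-ERB factors, and the D-box TTANNTAA. For myeloid transcription factors they were GAGGAAG for PU.1, TTGCNNAA for C/EBP proteins and AGATAA for GATA factors. For signal-driven factors they were TGANTCA for AP-1 and TGACGTCA for the cAMP response element (CRE). No matches overlapped. The windows are chr11:114989887-114990136 (minus strand) for Cd300ld, chr11:115133993-115134242 (minus) for Cd300lf, chr11:115001881-115002130 (minus) for Cd300c2 and chr17:48232489-48232738 (plus) for Trem1.
Cd300ld: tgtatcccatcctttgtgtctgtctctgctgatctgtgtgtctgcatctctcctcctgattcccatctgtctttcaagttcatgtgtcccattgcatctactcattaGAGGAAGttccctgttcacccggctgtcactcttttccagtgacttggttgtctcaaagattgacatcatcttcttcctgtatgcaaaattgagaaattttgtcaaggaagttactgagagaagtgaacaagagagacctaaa
Cd300lf: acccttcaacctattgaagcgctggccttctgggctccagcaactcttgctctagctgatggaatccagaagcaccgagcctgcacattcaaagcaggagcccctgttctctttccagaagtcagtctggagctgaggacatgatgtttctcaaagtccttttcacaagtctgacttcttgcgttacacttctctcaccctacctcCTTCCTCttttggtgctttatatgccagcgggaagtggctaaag
Cd300c2: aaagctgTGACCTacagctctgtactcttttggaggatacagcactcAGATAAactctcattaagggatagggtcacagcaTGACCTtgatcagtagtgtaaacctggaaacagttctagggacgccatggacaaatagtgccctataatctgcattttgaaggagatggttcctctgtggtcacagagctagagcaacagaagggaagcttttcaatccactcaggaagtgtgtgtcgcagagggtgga
Trem1: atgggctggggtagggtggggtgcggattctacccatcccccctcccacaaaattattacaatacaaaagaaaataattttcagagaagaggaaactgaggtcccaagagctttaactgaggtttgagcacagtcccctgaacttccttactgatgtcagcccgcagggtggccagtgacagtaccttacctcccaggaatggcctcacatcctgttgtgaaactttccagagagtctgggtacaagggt

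The PU.1 letters occurred before Cd300ld, 143 to 137 bases upstream, and before Cd300lf, 44 to 38 bases upstream on the opposite strand. They are found in 10.6% of all 32851 promoter windows of that length. The window of Cd300c2 held AGGTCA on the opposite strand at 2 places, 243 to 238 and 169 to 164 bases upstream, a motif present in 14.0% of windows, and the GATA letters 203 to 198 bases upstream (9.99% of windows). The Trem1 window held none of the 8. No window held the E-box, which 6.02% of all windows do, nor the D-box (5.43%), C/EBP (9.56%), AP-1 (6.75%) or CRE (1.55%) letters. A match is a run of letters and not a measured binding site.

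In CD11c-low cells, other receptors of this kind were found both higher and lower at ZT15. Of the 37 genes looked up for other paired immunoglobulin-superfamily receptors, 8 rose, 3 fell and 26 were not listed, with a median log2 fold change of 0.24, beside 0.21 and 52.2% higher over the whole table. At an s-value under 0.01 the list held 2 higher and 2 lower genes. Milr1, the gene of the inhibitory receptor Allergin-1 of mast cells, had the largest increase of the list, 0.69 ± 0.26 in the authors' deposited table. Fcgr3, the gene of an activating receptor for IgG that uses the same gamma chain as Cd300ld, rose by 0.34 ± 0.17 in the authors' deposited table.

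Lilrb4a, which encodes the ITIM-bearing gp49B, fell with -0.54 ± 0.19, and Lilrb4b, its close relative, with -0.27 ± 0.12 in the authors' deposited table. Reads of these close relatives may be hard to separate. Siglece, which encodes an ITIM-bearing sialic acid receptor and was named after its value was seen, fell with -0.31 ± 0.20 in the authors' deposited table. Inhibitory receptor genes were thus found in both directions, Cd300lf and Milr1 higher and Lilrb4a and Siglece lower at ZT15. Pirb (0.26 ± 0.15) and Siglecf (0.23 ± 0.13), inhibitory receptor genes of the same list, also rose in the authors' deposited table. The list was not sorted into activating and inhibitory genes, so these examples give no proportion.

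Of 16 C-type lectin-like receptor genes, 2 were listed, both higher. Clec4b2 had 1.00 ± 0.32 and Clec4a4, the gene of the inhibitory lectin DCIR2, 0.47 ± 0.15 in the authors' deposited table. Both have smaller s-values than Cd300ld, 0.000101 and 0.00012, and larger ones than Cd300lf.

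**Figure D3:**
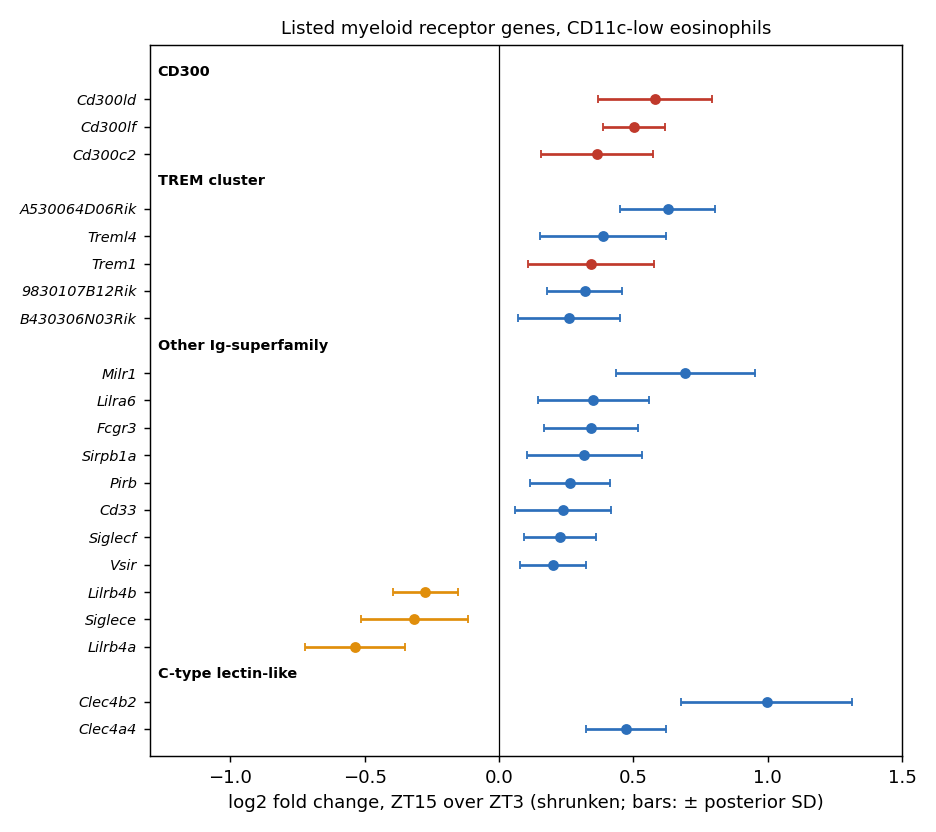
Log2 fold change at ZT15 over ZT3 (x axis, bars ± posterior standard deviation) of the listed receptor genes of CD11c-low eosinophils, by family; red marks the CD300 receptors and Trem1, blue other genes that rose and orange genes that fell. Lilrb4a, Lilrb4b and Siglece are the listed receptor genes left of 0.

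Signalling genes downstream of such receptors were also listed in both directions. Of 30 genes for activating adaptors and the first kinases, 2 rose, 7 fell and 21 were not listed, with a median log2 fold change of -0.31, beside 0.21 over the table. At an s-value under 0.01 there were 2 higher and 1 lower. At a gene-wise false sign rate under 0.05, 6 were left, among them Lyn, Pik3cg, Malt1 and Btk, all lower. The excess of lower genes thus depends on the call used. The adaptors of the receptors themselves, Tyrobp, Hcst and Fcer1g, and the kinase gene Syk were not listed. Fgr, a Src-family kinase gene, rose by 0.36 ± 0.15, whereas Lyn, the gene of another kinase of that family that also phosphorylates ITIMs, fell with -0.31 ± 0.17 in the authors' deposited table. Pik3cg, the gene of a phosphoinositide 3-kinase, fell with -0.33 ± 0.19 in the authors' deposited table. The other 5 that fell, named after their values were seen, were Btk, Vav1, Malt1, Grb2 and Prkcd, with log2 fold changes of -0.43 (Malt1) to -0.22 (Prkcd) in the authors' deposited table.

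Of 13 genes looked up for ITIM-binding phosphatases and other regulators of Src-family and Syk signalling, 2 were listed and both rose, with 11 not listed. Ptprc, which rose by 0.26 ± 0.13 in the authors' deposited table, encodes CD45, a phosphatase that activates Src-family kinases and is not recruited by ITIMs. Dok2, the listed gene of an inhibitory adaptor, rose by 0.21 ± 0.14 in the authors' deposited table, with a false sign rate of its own of 0.0647. The phosphatase genes through which ITIMs signal, Ptpn6, Ptpn11 and Inpp5d, were not listed.

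Genes known to be induced through TREM-1 or the adaptor CARD9 were evenly divided, with 3 higher, 3 lower and 9 of 15 not listed. Cxcl3, a neutrophil-attracting chemokine gene, had 0.82 ± 0.22, Il1b 0.41 ± 0.15 and Ccl4 0.31 ± 0.20, while Ptgs2, the cyclooxygenase-2 gene, had -0.74 ± 0.23, Cxcl2 -0.24 ± 0.13 and Il1a -0.19 ± 0.12 in the authors' deposited table. The median was 0.06, beside 0.21 over the table. It is the midpoint between Il1a and Ccl4 and reflects the even split, not a typical change, since only called genes are listed. Of 6 genes for proposed TREM-1 ligands, among them Pglyrp1 and Hmgb1, none was listed in either table.

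CLM-1 is known to associate with the interleukin-4 receptor in mice, and eosinophils live on interleukin-5 and related cytokines. Of 16 genes of these receptors and their kinases, 3 rose and 13 were not listed, Il4ra and Il5ra among them. Jak2 had 0.52 ± 0.23, Csf2rb, the gene of the receptor chain shared by interleukin-5, interleukin-3 and GM-CSF, 0.33 ± 0.16, and Jak1 0.24 ± 0.18 in the authors' deposited table. Jak1 was also listed in CD11c-high cells, at 0.21 ± 0.14 in the authors' deposited table.

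Enzymes that make or break down ceramide, or expose phosphatidylserine, gave 3 higher, 3 lower and 12 not listed of 18. Their median was -0.09, beside 0.21 over the table. It is the midpoint between Sgms2 and Degs1 and likewise reflects the even split, not a typical change. At an s-value under 0.01 there were 0 higher and 2 lower, Ugcg and Asah1. Ugcg, which uses ceramide to make glucosylceramide, fell with -0.82 ± 0.27, and Asah1, the acid ceramidase gene, with -0.42 ± 0.18 in the authors' deposited table. Sgms2, which turns ceramide into sphingomyelin, fell with -0.36 ± 0.29 in the authors' deposited table. Degs1 (0.18 ± 0.15) and Sptlc2 (0.22 ± 0.17), both of ceramide synthesis, and the scramblase family gene Plscr1 (0.39 ± 0.27) rose in the authors' deposited table.

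**Figure D4:**
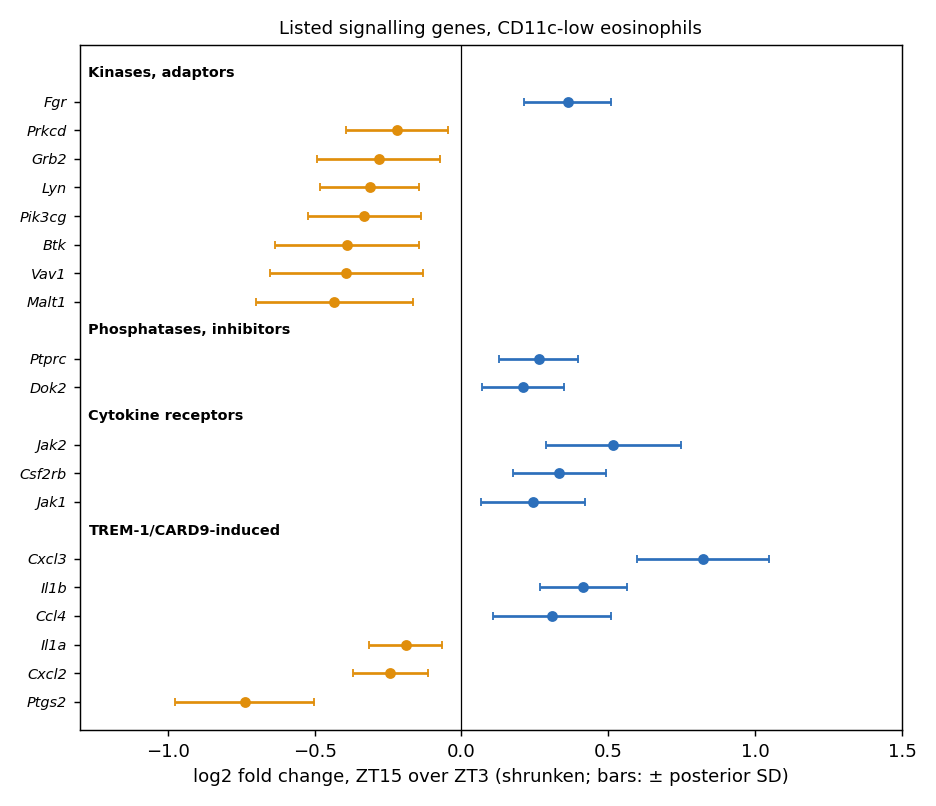
Log2 fold change at ZT15 over ZT3 (x axis, bars ± posterior standard deviation) of listed signalling genes of CD11c-low eosinophils, by group; blue marks genes that rose and orange genes that fell. Of the kinases and adaptors drawn, Fgr lies right of 0 and 7 genes left of it, from -0.43 to -0.22; 1 listed gene is not drawn.

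CD300 receptors and TREM-1 are also made by neutrophils, monocytes and mast cells, so markers of other cells are given beside their values. Of 11 eosinophil markers, 3 were listed in CD11c-low cells, 8 were not, and 0 were listed in CD11c-high cells. The 3, Siglecf, Alox15 and Adgre1, had mean normalised counts of 1633, 4887 and 2776 in the authors' deposited table. Of these the first 2 were higher and Adgre1 was lower (-0.29 ± 0.14 in the authors' deposited table). Of 12 neutrophil markers, S100a8, S100a9 and Ly6g among them, 0 were listed in either table. Of 17 monocyte, macrophage and dendritic cell markers, Cd68 rose (0.52 ± 0.30) and Cd74 fell (-0.49 ± 0.33) in the authors' deposited table. Of 10 mast cell and basophil markers, Hdc, which other granulocytes share, rose in both of the authors' deposited tables, by 0.24 ± 0.19 for CD11c-high and by 0.58 ± 0.20 for CD11c-low cells. Of 11 B and plasma cell markers, Bank1 (0.32 ± 0.15) and Ighm (0.24 ± 0.20) rose, and of 10 epithelial markers Krt18 fell (-0.35 ± 0.24) in the authors' deposited table. The gene-wise false sign rate was 0.113 for Ighm and 0.0624 for Krt18. Beside these markers, 14 immunoglobulin segment genes were listed in CD11c-low and 9 in CD11c-high cells, and their directions are not given here. Gzma, a granzyme gene of T and NK cells, was the 1 listed of 11 T, NK and innate lymphoid cell markers. It rose at 30.4 mean normalised counts, with a fitted change too large to read as a fold, in the authors' deposited table. Levels of markers that are not listed were not analysed here, and the part of other cells in the receptor changes was not tested.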

How the data were processed

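RNA was measured in 16 libraries of sorted duodenal eosinophils, with polyadenylated RNA from 1000 cells each and the Nextera XT kit, per the labels. The submitters' processing notes name STAR 2.7.10b, DESeq2 1.38.3 and build GRCm39 with no role; how reads were counted and estimates shrunken is not stated there. The authors deposited, per CD11c subset, a table of their own PM-against-AM comparison, with no value of a single library. Per the file headers it holds a mean normalised count (a signal), a log2 fold change with its posterior standard deviation on the log2 scale, and an s-value, an error rate of the sign over a list, like a q-value and not a p-value. The log2 fold changes deposited were read as shrunken towards 0, and their errors as posterior standard deviations, since s-values go with shrunken estimates. All s-values lie under 0.05, so only called genes are listed. The direction was taken from the tables' names. Depth per library is unknown and no counting interval could be computed. The labels do not say that libraries came from separate mice, so the errors may be technical.

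No count test was possible. Computed here (Python 3.11.15, pandas 2.3.3, NumPy 2.4.6, SciPy 1.17.1, Matplotlib 3.10.9) were folds, 95% normal intervals, ranks, each gene's own false sign rate (checked on simulated data), counts over 10 lists and 7 marker lists, shared 50-base words and motif matches. The receptors and the lists were chosen with earlier results of these data known. Named genes were the 4 receptors, their neighbours by s-value, and all listed genes of a list, or the 4 with the smallest s-value where more than 6 were listed. A gene that this rule takes is counted in its list but not reported here by name. RefSeq synonyms were resolved and doubled names removed after the tables were opened. A likeness of pattern could not be given, since no receptor is in both tables. Alternatives were stricter calls and a minimum mean normalised count of 50.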

Additional observations from a re-analysis of the deposited data

How the results depend on the processing

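Of the 4 receptors listed as higher at ZT15 in CD11c-low cells, 2 passed an s-value under 0.01 and 2 had a 95% interval that left out 0; 3 had a gene-wise false sign rate under 0.05, and 4 reached 50 mean normalised counts. The count in CD11c-high cells was 0 under every one of these settings. With the receptors left out, related genes in CD11c-low cells numbered 25 higher and 16 lower at the deposited calls, 11 and 7 at an s-value under 0.01, and 15 and 10 at a false sign rate under 0.05. In CD11c-high cells they were 2 higher and 1 lower, 0 and 0 at an s-value under 0.01, and 1 and 0 at a false sign rate under 0.05. Over all listed genes, 52.2% were higher in CD11c-low and 54.1% in CD11c-high cells at the deposited calls. The lists were chosen with earlier results known, so nothing is read from these counts. Ranks by size moved little: that of Cd300ld was 72 with immunoglobulin segments and predicted genes left out and 83 among genes that reach 50 mean normalised counts. Leaving out single libraries, other normalisations and other filters on low counts were not run, because the tables hold no values per library. No paired analysis was possible because no column belongs to a single library, so the replicate numbers of the labels could not be used.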
